A study of Mus musculus with 5 samples.

Results

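The 7 genes Gzmk, Gzma, Gzmb, Prf1, Nkg7, Cst7 and Ctsw, which encode granzymes, perforin and other proteins of the cytotoxic granule, were followed in single T cells from the brains of stressed mice. They were taken by name from the deposited count files, where they are 7 of 52542 listed genes and 7 of 15952 genes with at least 1 count in the cells kept here. Each count is a UMI, a tag that marks 1 captured RNA molecule. A well was kept if it was sorted with 1 cell, held 400 UMIs or more and drew no more than 30% of them from mitochondrial genes, and 1482 cells from 5 mice passed. All mice carried the Grl1loxP/loxP alleles, in which loxP sites flank the glucocorticoid receptor gene, and all received electrical foot shocks as a psychological stress. Before the stress, 3 mice (numbered 207, 208 and 215, aged 18, 18 and 19 weeks) received TAT-CRE recombinase into the brain ventricles, and 2 mice (216 and 218, labelled Sham, aged 19 and 16 weeks) received PBS. The design aimed at a knockdown of the receptor on the choroid plexus, whereas the cells measured were CD45+CD11b-TCRβ+ cells from brain tissue freed of choroid plexus, collected on day 14 after stress, so the targeted tissue itself was not measured. Whether a library came from 1 animal or from pooled animals is not given in the sources used here, and the p-values measure the spread between these 5 libraries, called mice below.

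Cytotoxic T cells kill by releasing granules onto a target cell. Perforin, the product of Prf1, opens pores in the target membrane, and granzymes, a family of serine proteases, enter through them. Granzyme B, from Gzmb, cleaves after aspartate and activates caspases, whereas granzyme A and granzyme K, from Gzma and Gzmk, are tryptases. Gzmk is known from memory CD8 T cells of aged and inflamed tissues, among them the brain, and Gzmb and Prf1 from armed effector cells and NK cells. Nkg7 encodes a granule membrane protein of killer lymphocytes, Cst7 encodes cystatin F, an inhibitor of the cathepsins that activate progranzymes, and Ctsw encodes cathepsin W, a protease of CD8 T cells and NK cells.

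Gzmk and Gzma are neighbours on mouse chromosome 13 (mm10), at chr13:113171608-113225908 and chr13:113093825-113100981, both on the minus strand and 70626 bases apart with 3 other annotated genes between them. Gzmb lies at chr14:56258838-56262260 on the minus strand and Prf1 at chr10:61297833-61304680 on the plus strand. Nkg7 lies at chr7:43437073-43438249 and Cst7 at chr2:150570415-150578944, both on the plus strand, and Ctsw at chr19:5465043-5468507 on the minus strand. The Gzmk gene overlaps Esm1 and Ctsw overlaps Fibp, both on the other strand, and whether counting used the strand is not given in the sources used here. Esm1 had 14 UMIs and Fibp 56 in all kept cells, against 504 for Gzmk and 511 for Ctsw. Gzmb has close copies in the genome (Gzmc to Gzmg and Gzmn) with which it could share reads, and its counts are uncertain to that extent.

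The 250 bases before the start of the 4 killing genes are shown because they differ in short motifs of 3 transcription factor families that act in cytotoxic T cells. They are RefSeq sequences of build GRCm38.p6, the same assembly as mm10, written 5′ to 3′ along the gene at chr13:113180966-113181215, chr13:113100982-113101231 and chr14:56262335-56262584 on the minus strand and chr10:61297586-61297835 on the plus strand, and 6 of the 7 genes had an entry. Capitals mark the T-box letters AGGTGT or ACACCT (the family of Eomes and T-bet), the RUNX letters TGTGGT or ACCACA and the AP-1 letters TGANTCA, searched on both strands.
Gzmk: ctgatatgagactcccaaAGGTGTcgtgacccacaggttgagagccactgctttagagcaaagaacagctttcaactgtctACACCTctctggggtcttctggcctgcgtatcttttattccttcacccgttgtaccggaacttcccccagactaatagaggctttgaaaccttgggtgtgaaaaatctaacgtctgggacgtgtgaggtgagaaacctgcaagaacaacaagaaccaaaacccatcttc
Gzma: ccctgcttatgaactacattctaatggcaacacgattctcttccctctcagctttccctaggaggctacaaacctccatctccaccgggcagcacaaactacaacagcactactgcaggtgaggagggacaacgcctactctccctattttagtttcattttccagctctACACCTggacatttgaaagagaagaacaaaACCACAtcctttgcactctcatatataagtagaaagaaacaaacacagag
Gzmb: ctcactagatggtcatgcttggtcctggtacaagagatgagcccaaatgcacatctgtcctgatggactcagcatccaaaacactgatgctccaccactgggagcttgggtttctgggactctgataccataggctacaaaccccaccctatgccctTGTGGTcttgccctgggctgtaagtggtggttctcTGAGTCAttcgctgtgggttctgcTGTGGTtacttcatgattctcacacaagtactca
Prf1: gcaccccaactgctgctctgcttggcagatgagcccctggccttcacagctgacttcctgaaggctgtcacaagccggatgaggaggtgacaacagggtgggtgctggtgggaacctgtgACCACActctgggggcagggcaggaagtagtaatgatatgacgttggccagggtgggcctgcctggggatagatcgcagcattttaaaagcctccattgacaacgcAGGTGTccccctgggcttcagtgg

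The Gzmk run held 2 T-box matches, 232 and 169 bases before the start, and 0 RUNX matches. The Gzma run held 1 T-box match at 80 bases and 1 RUNX match at 50 bases, and the Prf1 run 1 T-box match at 24 bases and 1 RUNX match at 130 bases. The Gzmb run held 0 T-box matches, 2 RUNX matches at 93 and 34 bases and 1 AP-1 match at 58 bases. No match overlapped another. RefSeq starts Gzmk inside the longer span that the mm10 annotation gives the gene. Among 32851 promoter windows of the same length, 11.8% held the T-box letters, 14.0% the RUNX letters and 6.75% the AP-1 letters. A match describes the letters only.

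The mice gave 311, 303 and 298 kept cells (TAT-CRE 207, 208 and 215) and 296 and 274 (PBS 216 and 218), with 362457 to 839188 UMIs per mouse. The median cell held 993 UMIs in TAT-CRE 208, the shallowest library, and 1410 to 2660 in the others. TAT-CRE 208 also stood apart in its ribosomal RNA genes, which took 28.3% of its UMIs against 43.9% to 48.0% in the other mice. Every mouse had its own plate, so plate and mouse cannot be told apart, and no well was shared between libraries (0 shared well identifiers, although the same 384 well barcodes were reused on every plate). T cell markers had a UMI in 1359 cells (91.7%). Markers of other cell types were also read: B cell markers had a UMI in 126 cells (with Cd79a at 0), the monocyte or macrophage list in 103 (6.95%, all from Ccr2, with Lyz2, Csf1r, Cd14 and Ms4a7 at 0), the plasmacytoid dendritic cell list in 96 (6.48%, with Siglech at 0) and the microglia list in 35 (2.36%, with P2ry12, Tmem119 and Sparc at 0). All 6 mast cell markers were at 0. The summed B cell markers stood at 95.3 to 163 CPM (UMIs per 1000000) in the TAT-CRE mice and 70.3 to 94.1 in the PBS mice, without overlap, and their part in the comparisons was not tested. Nr3c1, the floxed receptor gene, stood at 175, 141 and 156 CPM in cells of TAT-CRE 207, 208 and 215 and at 191 and 222 in those of PBS 216 and 218 (log2 fold change -0.44 ± 0.29 SE, edgeR adjusted p = 0.999). T cells were not the target of the knockdown, and no source used here says if the Nr3c1 reads fall inside the deletable segment. Gapdh, which every cell uses, had 2 UMIs in all kept cells against 20568 for Actb, so a low count in these files is not by itself low expression.

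Nkg7 was the member found in the most brain T cells. At least 1 of the 7 members had a UMI in 802 of 1482 cells (54.1%, exact 95% binomial interval 51.5% to 56.7%). All such intervals cover counting error only. This share depended on depth and on the mouse: the TAT-CRE mice held 69.1% (207), 36.0% (208) and 49.0% (215), the PBS mice 54.4% (216) and 62.4% (218), and it was 30.3% over all cells when each was thinned to 400 UMIs. Gzmk had a UMI in 185 cells (12.5%, 10.8% to 14.3%), more cells than Gzma (44 cells, 2.97%, 2.17% to 3.97%), Gzmb (101 cells, 6.82%, 5.58% to 8.22%) or Prf1 (102 cells, 6.88%, 5.65% to 8.29%). Nkg7 had a UMI in 512 cells (34.5%, 32.1% to 37.0%), Ctsw in 194 (13.1%, 11.4% to 14.9%) and Cst7 in 152 (10.3%, 8.76% to 11.9%). The count of cells with a UMI depends on how well each transcript is captured, so this order describes detection and not the amount of protein. Of the 20 empty wells, which held a median of 40 UMIs, 1 had a UMI of Gzmb and 1 a UMI of Nkg7, and the other 5 members had none. Of the same wells, 1 had a UMI of Cd8a, 2 one of Cd8b1, 3 one of Ccl5 and 0 one of Cd4, genes used or called in the comparisons of cell classes below.

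A few cells held a large part of the UMIs of Gzma, Gzmb and Prf1, whereas those of Gzmk were spread over more cells. A Gzmk-positive cell held a median of 2 UMIs of it and at most 17, and 73 of the 185 held a single one. Cells with 5 or more UMIs of the gene held 40.7% of the Gzmk UMIs (30 cells), but 71.4% of those of Gzma (11 cells), 66.5% of those of Gzmb (31 cells) and 61.9% of those of Prf1 (29 cells). For Nkg7, Cst7 and Ctsw the shares were 45.6% (100 cells), 39.8% (23 cells) and 40.1% (32 cells). The highest Gzma cell, in TAT-CRE 207, held 42 UMIs, which is 22.7% of all Gzma UMIs and 60.9% of those of its mouse.

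**Figure D1:**
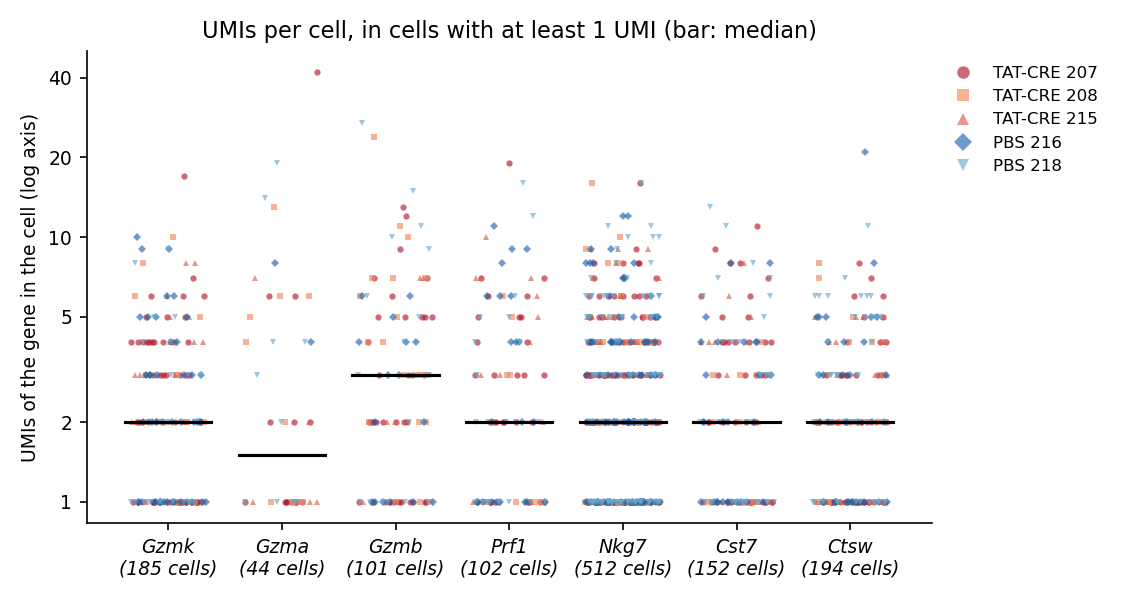
UMIs of each member in every cell that held at least 1 (vertical log axis), by mouse, with the median as a bar. Over all mice the medians lie between 1.5 (Gzma) and 3 UMIs (Gzmb), and the single Gzma cell with 42 UMIs stands above all others.

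Per mouse, Gzmk was read in 56, 19 and 35 cells of TAT-CRE 207, 208 and 215 and in 48 and 27 cells of PBS 216 and 218. Because depth differed between mice, shares were also computed for each cell thinned to 400 UMIs, a depth that every kept cell reached. At that depth Gzmk was in 6.83%, 4.11% and 5.87% of TAT-CRE cells and 7.31% and 3.17% of PBS cells, in the same order of mice. PBS 216 and TAT-CRE 207 were the highest and PBS 218 the lowest, so the groups overlapped. In CPM, Gzmk stood at 224, 152 and 160 against 238 and 81.0, with the same mice at the ends.

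Gzma was in 15, 11 and 5 cells against 2 and 11, or 1.59%, 2.43% and 0.467% against 0.581% and 1.68% at 400 UMIs. Its CPM values were 99.7, 113 and 20.4 against 21.6 and 60.8. TAT-CRE 215 and PBS 216 were low and the other 3 mice higher, across both groups. Gzmb was in 37, 22 and 9 cells against 16 and 17, or 4.87%, 5.34% and 1.34% against 2.63% and 3.12%. Its CPM values were 179, 303 and 44.2 against 81.1 and 120, so TAT-CRE mice held both its highest values and its lowest. Prf1 was in 32, 10 and 16 cells against 22 and 22, or 4.48%, 1.71% and 2.96% against 3.45% and 2.56%, with CPM values of 155, 66.2 and 111 against 148 and 88.2. TAT-CRE 207 was the highest and TAT-CRE 208 the lowest for this gene, and the PBS mice lay between them. On both measures the mice therefore did not keep 1 order across members, since TAT-CRE 208 was the highest for Gzma and Gzmb and the lowest for Prf1. Both measures count ribosomal RNA genes in the total, which took 28.3% of UMIs in TAT-CRE 208 against 43.9% to 48.0% in the other mice. This raises every other gene in TAT-CRE 208, and the order of mice without these genes was not tested.

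Nkg7 was in 138, 60 and 100 cells against 106 and 108, or 18.8%, 12% and 15.7% against 17.2% and 13.3% at 400 UMIs. Cst7 was in 46, 14 and 25 cells against 27 and 40, or 5.90%, 2.3% and 3.74% against 3.64% and 4.56%. Ctsw was in 54, 25 and 33 cells against 36 and 46, or 6.15%, 4.74% and 4.47% against 5.48% and 6.24%. TAT-CRE 208 was the lowest mouse for Nkg7 and Cst7 in these shares, and the groups overlapped for all 3 genes. In CPM, Nkg7 stood at 572, 480 and 471 against 571 and 425, Cst7 at 202, 71.7 and 107 against 128 and 145 and Ctsw at 181, 177 and 129 against 196 and 163. PBS 218, the deepest library, was then the lowest for Nkg7, while TAT-CRE 208 remained the lowest for Cst7. These places too rest on totals that include ribosomal RNA genes, which were fewest in TAT-CRE 208. Any of the 7 members was in 38.3%, 24.9% and 27.7% of cells at 400 UMIs against 32.1% and 28.0%, a difference between the group means of 0.230 percentage points (exact permutation p = 1).

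**Figure D2:**
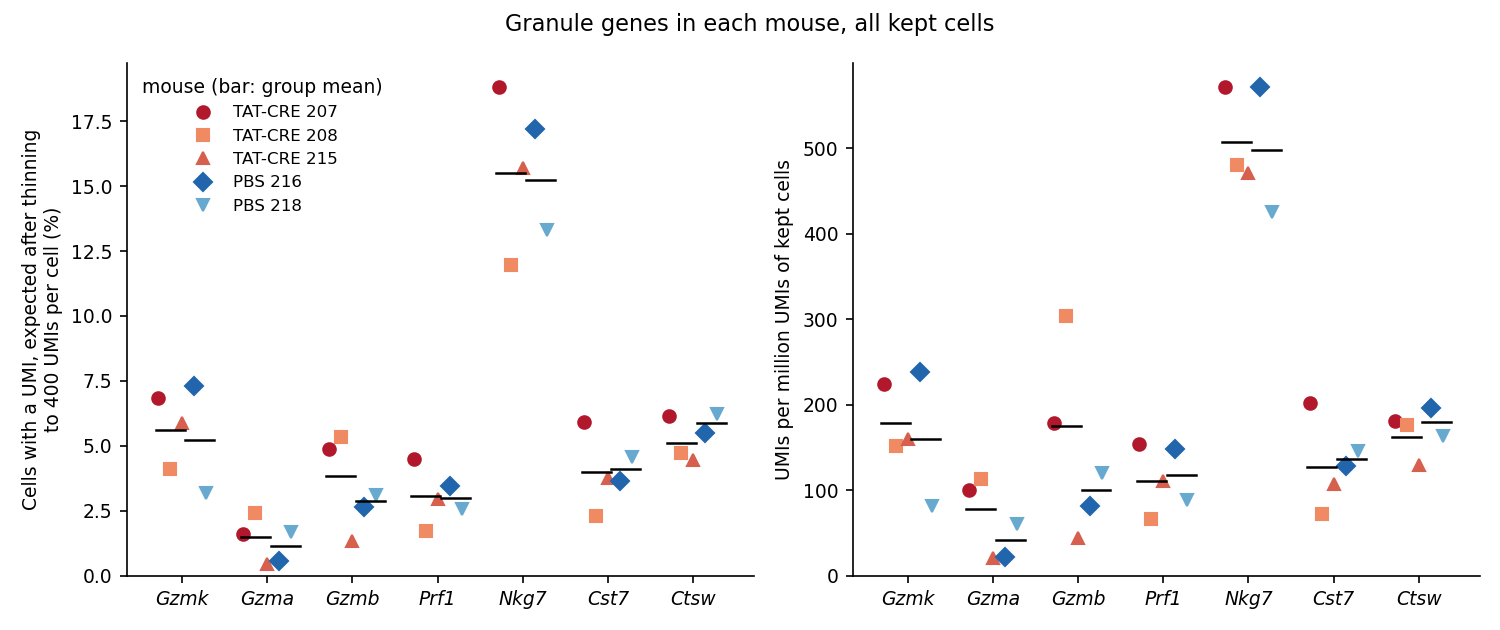
Share of kept cells with a UMI after thinning to 400 UMIs (left, %) and CPM (right) for the 7 members in each mouse, with group means as bars. Red and orange symbols (TAT-CRE) and blue symbols (PBS) overlap for every member, and TAT-CRE 208 is high for Gzma and Gzmb and low for Prf1 and Cst7 on both axes.

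No member passed the test between TAT-CRE and PBS mice. On UMIs summed per mouse, edgeR's quasi-likelihood test with Benjamini-Hochberg adjustment called 0 of 7 members, against 0 of 6341 genes tested (0%). At an unadjusted p under 0.05 it marked 230 genes (3.63%) and none of the members, and DESeq2 called 1 gene, no member. Summed counts cannot tell fewer cells with a gene from less RNA per cell. The log2 fold changes were 0.12 ± 0.43 (SE) for Gzmk, 0.75 ± 0.62 for Gzma, 0.61 ± 0.50 for Gzmb and -0.10 ± 0.44 for Prf1. They were -0.04 ± 0.23 for Nkg7, -0.11 ± 0.43 for Cst7 and -0.23 ± 0.28 for Ctsw, with an edgeR adjusted p of 0.999 for each of the 7. The median over the members was -0.04, beside 0.00134 over all genes tested. The groups did not overlap for 0 of 7 members and for 17.6% of all genes.

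The standard errors show what these 5 mice could resolve: those of Nkg7 and Ctsw were the smallest among the members and those of Gzma and Gzmb the largest. The value of Gzmb rested on TAT-CRE 208, without which it was 0.21. That of Gzma was 0.27 without the 42-UMI cell. Thinned shares gave the same picture, with exact two-sided permutation p-values of 0.3 for Ctsw to 1 for Prf1 and Cst7 (all 1 after adjustment over the 7 members). The smallest p that 3 against 2 mice allow is 0.1.

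Other genes of the granule pathway were measured beside the members in the same fit. Of the 12 genes of granule exocytosis, such as Rab27a and Unc13d, which dock and prime granules, 10 passed the filter on low counts and 5 were higher and 5 lower, with 0 called by edgeR. Of the 11 granule matrix and processing genes 7 were tested (2 higher, 5 lower, 0 called). In this list Srgn, the proteoglycan that packs granzymes, was at 531 ± 86.7 against 509 ± 5.85 CPM (SD, n = 3 and 2), and Ctsc, the cathepsin that activates progranzymes, at 78.7 ± 54.0 against 78.1 ± 19.5. Of the 6 granzyme inhibitors 5 were tested (2 higher, 3 lower, 0 called). Serpinb9, which inhibits granzyme B, was at 18.0 ± 1.26 against 19.8 ± 17.9 CPM, and Serpinb6b, a serpin of the same clade, at 14.3 ± 6.39 against 27.2 ± 4.81.

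Regulators of the cytotoxic programme had 9 of 10 genes tested (5 higher, 4 lower), death ligands and effector cytokines 3 of 6 (1 higher, 2 lower) and effector chemokines 3 of 4 (1 higher, 2 lower), with 0 called in each. Ifng had a UMI in 2 cells and Tnf in 5. Of 14 killer cell receptors 9 were tested, 3 higher and 6 lower, with 0 called. Those with the smallest p were Cd160, an activating receptor of NK cells and cytotoxic T cells, Fcer1g, a signalling adaptor, and Klre1, a receptor of NK cells. Cd160 stood at 15.9, 8.28 and 15.3 CPM with TAT-CRE and at 70.3 and 66.7 with PBS, so the groups did not overlap. Its log2 fold change of -2.36 ± 0.59 had an unadjusted p of 0.00151 and an edgeR adjusted p of 0.999. Fcer1g was at 5.78, 8.28 and 5.10 against 57.7 and 21.4 CPM (log2 fold change -2.71 ± 0.79) and Klre1 at 40.4, 11 and 0 against 82.9 and 75.1 (-2.17 ± 0.85), each with an edgeR adjusted p of 0.999. The lymphotactin gene Xcl1 was at 44.8, 55.2 and 57.8 against 81.1 and 118 CPM (-0.99 ± 0.40, edgeR adjusted p = 0.999), also without overlap. Klrk1, the activating receptor NKG2D (-0.94 ± 0.48), and Ccr7, the lymph node homing receptor (-1.13 ± 0.58), overlapped between the groups. The sum over markers of NK cells, a list that leaves out Gzma, was lower without overlap, as groups failed to overlap for 17.6% of all genes. Of this list 8 of 9 genes had a UMI, Klra4 was at 0 and Ncr1, the defining NK cell receptor, had a UMI in 1 cell. Their summed level was 40.8 to 146 CPM in the TAT-CRE mice and 186 to 286 in the PBS mice. The list shares 5 genes with the receptors (Ncr1, Klrb1c, Fcer1g, Tyrobp and Klre1), so the sum repeats the counts of Fcer1g and Klre1 given above. The sort on TCRβ selects against NK cells, and the part of NK cells in these values was not tested.

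The other granzymes were nearly absent from the counts. Gzmd, Gzme, Gzmf, Gzmg and Gzmn had no UMI in 1482 cells, which allows a share of cells with a UMI of up to 0.202% each. Gzmm had 18 UMIs in 9 cells, spread over all 5 mice. Gzmc had 58 UMIs, 56 of them in 6 cells of PBS 218 and 2 in 1 cell of TAT-CRE 208.

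For each member, 51.3% (Cst7) to 61.1% (Gzmk) of the cells with a UMI also held a CD8 chain and no Cd4. Cells were classed by their own UMIs as Cd8 (a UMI of Cd8a or Cd8b1, the chains of the CD8 coreceptor, and none of Cd4), Cd4 (the reverse), both or neither. The Cd8 class held 630 cells (42.5%), the Cd4 class 85 (5.74%), both 25 and neither 742 (50.1%). The neither class was largest in TAT-CRE 208 (68.0% of cells, against 33.8% in TAT-CRE 207 and near the mean over all mice in the other 3) and shallower (median 1315.5 UMIs, against 1985.5 in the Cd8 and 1717 in the Cd4 class). A cell without a coreceptor UMI can still carry a coreceptor.

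Of the 185 Gzmk-positive cells 113 (61.1%) fell in the Cd8 class, 10 in the Cd4 class and 56 in neither. For Gzma the counts were 25, 2 and 17, for Gzmb 55, 2 and 41 and for Prf1 62, 2 and 37. Nkg7 gave 308, 22 and 175, Cst7 78, 5 and 65 and Ctsw 118, 4 and 68. The Cd4-class cells with a UMI of Gzma or Gzmb all came from TAT-CRE 207 (2 cells for each gene), and those with Gzmk came from all 5 mice (4, 2 and 1 cells against 1 and 2). Of the 4 killing genes Gzmk alone was read in Cd4-class cells of every mouse. It was also the one read in the most cells, and a mouse gave only 8 to 23 Cd4-class cells.

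At 400 UMIs, the mean over the 5 mice of the share with Gzmk was 6.66% ± 3.19 (SD, n = 5) in the Cd8 class and 5.66% ± 2.17 in the Cd4 class. Mouse by mouse the Cd8-class shares were 7.18%, 3.52% and 8.21% against 10.9% and 3.47%, and the Cd4-class shares 5.74%, 7.37% and 2.59% against 4.65% and 7.97%. Gzmk was higher in the Cd8 class in 3 of 5 mice and lower in TAT-CRE 208 and PBS 218, and an exact paired permutation test gave a two-sided p of 0.688. The other 6 members had a higher share in the Cd8 class in 5 of 5 mice at this depth. The means were 1.53% ± 0.521 against 0.234% ± 0.524 for Gzma, 4.30% ± 2.63 against 1.18% ± 2.65 for Gzmb and 4.09% ± 1.68 against 0.783% ± 1.18 for Prf1. They were 20.5% ± 3.02 against 9.90% ± 4.48 for Nkg7, 4.22% ± 1.60 against 1.46% ± 1.96 for Cst7 and 8.07% ± 2.14 against 1.76% ± 2.42 for Ctsw. Each of these 6 had an exact p of 0.063, the smallest that 5 pairs allow, and 0.0729 after adjustment over the 7 members. Before thinning, the pooled shares were 17.9% against 11.8% for Gzmk, 8.73% against 2.35% for Gzmb and 48.9% against 25.9% for Nkg7. Unthinned, Gzma and Prf1 were higher in the Cd8 class in 4 of 5 mice only. The mean share with Gzma was then 3.77% against 1.82% (exact permutation p = 0.312), with TAT-CRE 207 the exception (5.75% against 9.09%). That with Prf1 was 9.24% against 3.41% (exact permutation p = 0.125), with PBS 218 the exception (9.92% against 12.5%). Gzmb, Nkg7, Cst7 and Ctsw were higher in 5 of 5 mice at both depths. A test of whether Gzmk differed from the other members in its Cd8 against Cd4 contrast was not run. A mouse gave only 8 to 23 Cd4-class cells, so a gene at 0 there still allows a share of 13.0% to 37.5% of cells with a UMI. Gzma and Gzmb were at 0 in the Cd4 class outside TAT-CRE 207, where any Cd8-class cell with a UMI set the direction. For such genes the count of mice and its p cannot separate a lower share from few Cd4-class cells.

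**Figure D3:**
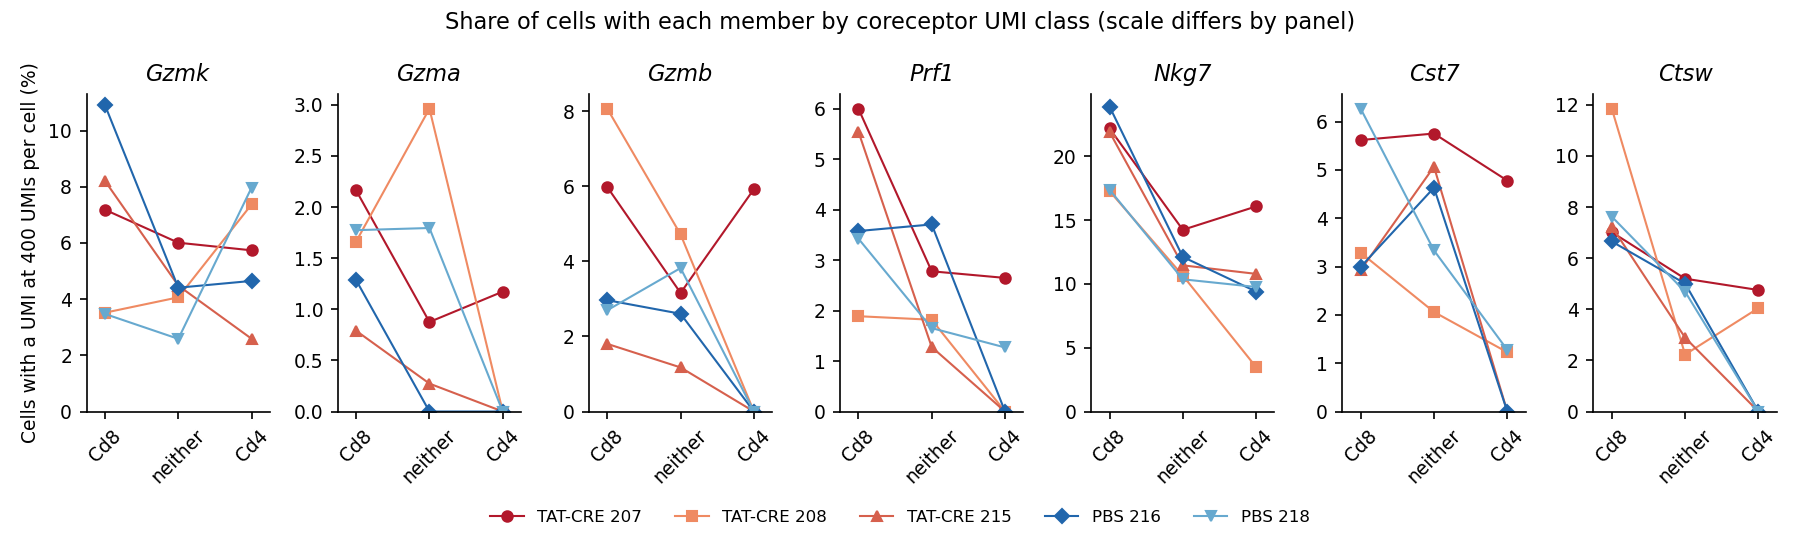
Share of cells with a UMI at 400 UMIs (%) for each member in the Cd8, neither and Cd4 classes of each mouse, with the scale set per panel. In all 5 mice the Cd8 point lies above the Cd4 point for every member but Gzmk, by as little as 5.98% against 5.92% for Gzmb in TAT-CRE 207, and Gzmk is higher in the Cd4 class in TAT-CRE 208 and PBS 218.

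On summed UMIs with the mouse as a block, edgeR called 2 of 728 genes between the Cd8 and Cd4 classes (0.275%, and 6.18% at an unadjusted p under 0.05), both higher in the Cd8 class, and 0 of the 3 members that passed the filter on low counts. Nkg7 stood at 676, 641 and 677 CPM in Cd8-class cells of the TAT-CRE mice and 779 and 570 in those of the PBS mice, against 358, 84.5 and 245 and 278 and 319 in Cd4-class cells. The lowest Cd8-class value was above the highest Cd4-class value. The log2 fold change of 1.35 ± 0.30 (SE, higher in 5 of 5 mice) had an edgeR adjusted p of 0.0559, just over the threshold of 0.05, and one of 0.0471 without the mouse as a block. Over 15 alternatives its adjusted p ran from 9.68e-07 to 0.518 and was under 0.05 in 6. Ctsw was at 256 ± 104 against 63.1 ± 86.8 CPM (SD, n = 5), with no UMI in the Cd4-class cells of 3 mice (log2 fold change 2.34 ± 0.85, edgeR adjusted p = 0.493). Gzmk was at 190 ± 111 against 182 ± 148 CPM (0.12 ± 0.77, edgeR adjusted p = 0.997).

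The called genes were Ccl5, a chemokine stored and released by memory CD8 T cells, and Ly6c2, a surface protein of memory CD8 T cells. Ccl5 was at 3175 ± 774 against 715 ± 375 CPM (log2 fold change 2.17 ± 0.20, edgeR adjusted p = 1.05e-05, higher in 5 of 5 mice), and Ly6c2 at 648 ± 164 against 66.9 ± 47.0 (3.21 ± 0.47, edgeR adjusted p = 0.00158, 5 of 5). Without TAT-CRE 215 the adjusted p of Ly6c2 was 0.056. Gzma, Gzmb, Prf1 and Cst7 did not pass the filter, which counts Cd4-class sums too. With no filter edgeR gave Gzmb an adjusted p of 0.0277 and Prf1 one of 0.0376, in a fit whose median over all genes was 1.27 and which called 79 genes. Among the pathway lists, the 4 naive and memory genes tested (1 higher, 3 lower) had 0 called, as had the 3 regulators (3 higher) and the 4 residency genes (2 higher, 2 lower). Rgs2, a regulator of G protein signalling on the residency list, had the smallest p of the listed genes after Ccl5. It stood at 108, 326 and 182 CPM in Cd8-class cells of the TAT-CRE mice and 128 and 105 in those of the PBS mice, against 97.7, 676 and 660 and 1350 and 383 in Cd4-class cells. It was lower in the Cd8 class in the 4 mice other than TAT-CRE 207 (log2 fold change -1.68 ± 0.44, unadjusted p = 0.00197, edgeR adjusted p = 0.16). Its adjusted p was 0.00858 by DESeq2 and 0.0311 with at least 2 Cd8 UMIs for the Cd8 class, also under 0.05 without TAT-CRE 207, and 0.651 with no filter, where its value was -0.86. Il7r, the receptor of a survival cytokine, was at 250 ± 64.6 against 579 ± 433 CPM (-0.99 ± 0.40, edgeR adjusted p = 0.595). The naive and memory genes Tcf7 (-0.75 ± 0.38) and S1pr1 (-1.29 ± 0.72) and the regulator Stat4 (1.34 ± 0.76) had edgeR adjusted p-values of 0.836 to 0.895. Srgn was at 0.49 ± 0.28.

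Within the Cd8 class, cells with Cd8a alone (222), both chains (193) and Cd8b1 alone (215) were set side by side. Gzmb had a UMI in 11.3% (7.42% to 16.2%), 10.9% (6.86% to 16.2%) and 4.19% (1.93% to 7.80%) of these cells, and Prf1 in 10.4% (6.68% to 15.1%), 13.0% (8.56% to 18.5%) and 6.51% (3.61% to 10.7%). Gzmk was in 18.5%, 22.3% and 13.5% and Nkg7 in 46.8%, 58.0% and 42.8%. The median depths were 1841.5, 2498 and 1685 UMIs. At 400 UMIs the shares were 5.25%, 5.42% and 1.82% for Gzmb, 4.57%, 5.90% and 2.89% for Prf1, 6.73%, 8.0% and 6.45% for Gzmk and 20.9%, 21.9% and 20.3% for Nkg7. Gzmb, Prf1, Gzmk and Nkg7 were each read least in cells with Cd8b1 alone, the shallowest group, at both depths. For Gzmk and Nkg7 the shares at 400 UMIs lay close together. These cells share mice and the differences were not tested.

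Between TAT-CRE and PBS mice, Cd8-class cells again showed no called member (0 of 7, against 0% of 4013 genes by edgeR, 3.09% at an unadjusted p under 0.05 and 0 by DESeq2). The groups did not overlap for 0 of 7 members and for 17.3% of all genes. Gzmb was at 229, 549 and 70.7 CPM against 94.4 and 117, with TAT-CRE 215 below both PBS mice (log2 fold change 1.13 ± 0.56, unadjusted p = 0.066, edgeR adjusted p = 1). Without TAT-CRE 208 its value was 0.59. Gzmk was at 210, 71.2 and 227 against 347 and 94.6 CPM (-0.30 ± 0.61), and Gzma at 147, 71.2 and 40.9 against 40.5 and 62.3 (0.74 ± 0.69), a value that was -0.0078 without its highest cell. Prf1 (0.20 ± 0.54), Nkg7 (-0.07 ± 0.24), Cst7 (-0.18 ± 0.55) and Ctsw (0.30 ± 0.33) lay within 1 standard error of 0, and the edgeR adjusted p was 1 for all 7. Among the listed genes Cd160 was at 18.7, 20.4 and 26.0 against 70.8 and 117 CPM and Calr, a chaperone also found in granules, at 74.8, 122 and 123 against 158 and 244, both without overlap and with an edgeR adjusted p of 1. Xcl1 (-1.05 ± 0.53), Ccr7 (-1.85 ± 0.99), the chemokine gene Ccl4 (-1.58 ± 0.87), Rgs1 (0.80 ± 0.46), Srgn (-0.23 ± 0.22) and Ctsc (0.06 ± 0.69) overlapped between the groups.

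Gzmk, like each of the other killing genes, was mostly read alone among the 4. Of the 352 cells with a UMI of Gzmk, Gzma, Gzmb or Prf1 (23.8% of kept cells), 134 (38.1%) held Gzmk alone, in 34, 14 and 28 cells of the TAT-CRE mice and 36 and 22 of the PBS mice. A further 167 held Gzma, Gzmb or Prf1 without Gzmk (49, 33 and 21 against 26 and 38 cells), and 51 held Gzmk with at least 1 of them (22, 5 and 7 against 12 and 5). Gzmk was alone in 134 of 185 positive cells, Prf1 in 67 of 102, Gzmb in 56 of 101 and Gzma in 24 of 44. The shares of Gzma, Gzmb and Prf1 in cells with and without Gzmk are given below. Gzmk with Gzmb was the largest pair with 20 cells, 10 of them in TAT-CRE 207, followed by Gzmk with Prf1 with 18. All 4 were read together in 1 cell, of TAT-CRE 207.

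**Figure D4:**
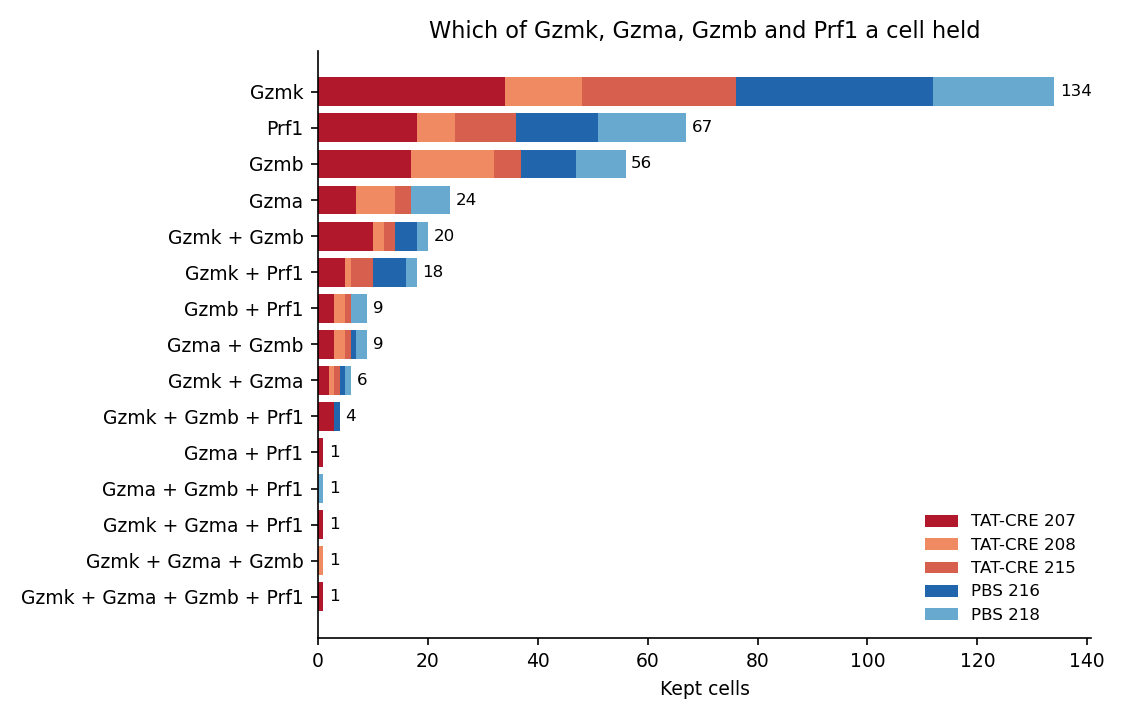
Number of kept cells with each combination of Gzmk, Gzma, Gzmb and Prf1, stacked by mouse; cells with none of the 4 (1130) are left out. Single genes make up the 4 longest bars, and Gzmk alone (134 cells) is the longest.

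Missed transcripts limit these patterns, since a cell with 1 of 4 members in its counts can express more. Cells with more of the 7 members in their counts were deeper: 680 cells held none (median 1314.5 UMIs), 455 held 1 (1804), 239 held 2 (2135), 83 held 3 (2199), 18 held 4 (3346), 6 held 5 (4414) and 1 held 6 (5767). Cells with Gzmk alone, with the others alone and with both had similar median depths (1919.5, 2062 and 2294 UMIs), and cells with none of the 4 were shallower (1535). The Cd8 class held 61.2%, 55.1% and 60.8% of the first 3 groups and 37.6% of cells with none.

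Of the 185 Gzmk-positive cells, 26 (14.1%) also held Gzmb, 24 (13.0%) Prf1 and 9 (4.86%) Gzma. Read from the other side, 25.7% of Gzmb-positive, 23.5% of Prf1-positive and 20.5% of Gzma-positive cells held Gzmk. Gzma and Gzmb were together in 12 cells (27.3% of Gzma-positive and 11.9% of Gzmb-positive cells), Gzmb and Prf1 in 15 (14.9% and 14.7%) and Gzma and Prf1 in 4 (9.09% and 3.92%). Nkg7 was read in a similar share of the cells with each of the 4, in 54.6% with Gzmk, 61.4% with Gzma, 57.4% with Gzmb and 55.9% with Prf1.

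Beside Gzmk, the shares of cells with Gzmb and Nkg7 were higher in every mouse at both depths, and that of Gzma in every mouse only at 400 UMIs. At 400 UMIs Gzmb was in 10.3%, 12.2% and 3.68% of Gzmk-positive cells of the TAT-CRE mice and 4.24% and 4.41% of those of the PBS mice, against 3.67%, 4.88% and 1.03% and 2.31% and 2.98% of Gzmk-negative cells. The means were 6.97% ± 3.98 and 2.97% ± 1.44 (SD, n = 5). Gzma was in 3.13% ± 1.35 against 1.12% ± 0.843 and Nkg7 in 25.7% ± 4.81 against 14.1% ± 2.90, both higher in 5 of 5 mice at this depth. For these 3 partners the exact two-sided paired permutation p was 0.063, the smallest possible, and 0.125 after adjustment over 6 partners. Prf1 was in 5.54% ± 2.20 against 2.64% ± 0.818 (4 of 5 mice, PBS 218 the exception, exact permutation p = 0.125). Cst7, in 5.13% ± 1.30 against 3.96% ± 1.56, and Ctsw, in 6.35% ± 1.31 against 5.29% ± 0.880, were higher in 3 of 5 mice each (exact permutation p = 0.438 and 0.25). Before thinning the means were 12.9% against 5.78% for Gzmb, 5.26% against 2.69% for Gzma and 52.5% against 32.0% for Nkg7. Gzma was then higher in 4 of 5 mice (exact permutation p = 0.125), with PBS 218 the exception (3.70% against 4.05%).

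Within the Cd8 class, which Gzmk-positive cells are richer in, the mean differences in Gzma, Gzmb and Prf1 over all 5 mice were smaller. At 400 UMIs no partner was higher beside Gzmk in all 5 mice. Gzmb was in 5.40% ± 5.60 of Gzmk-positive and 3.74% ± 2.78 of Gzmk-negative Cd8-class cells (SD, n = 5), higher in 4 of 5 mice, and was led by TAT-CRE 207 (14.8% against 3.69%). Without that mouse the difference was -0.685 percentage points. In TAT-CRE 208, with only 4 Gzmk-positive cells, Gzmb was in 0% against 8.51%. Without TAT-CRE 208 the Gzmb difference was larger than that over all kept cells. Gzma was in 1.99% ± 1.86 against 1.30% ± 0.754 (3 of 5 mice), and Prf1 in 4.18% ± 4.52 against 3.90% ± 1.38 (2 of 5). Nkg7 was in 33.3% ± 18.4 against 19.2% ± 3.20 (4 of 5 mice), a mean that TAT-CRE 208 raised with 65% among only 4 Gzmk-positive cells. Without that mouse the difference for Nkg7 was 5.04 percentage points, in place of 14.1. Before thinning Nkg7 was higher beside Gzmk in 5 of 5 mice, in 66.2% ± 6.70 against 43.6% ± 10.5 (difference 22.6 percentage points, exact permutation p = 0.063, the smallest that 5 pairs allow), and the other 5 partners were not. Cst7 was in 3.43% against 4.24% and Ctsw in 9.43% against 7.95%. At 400 UMIs the exact permutation p-values ran from 0.125 (Nkg7) to 0.875 (Prf1), and from 0.75 to 0.875 after adjustment over 6 partners.

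**Figure D5:**
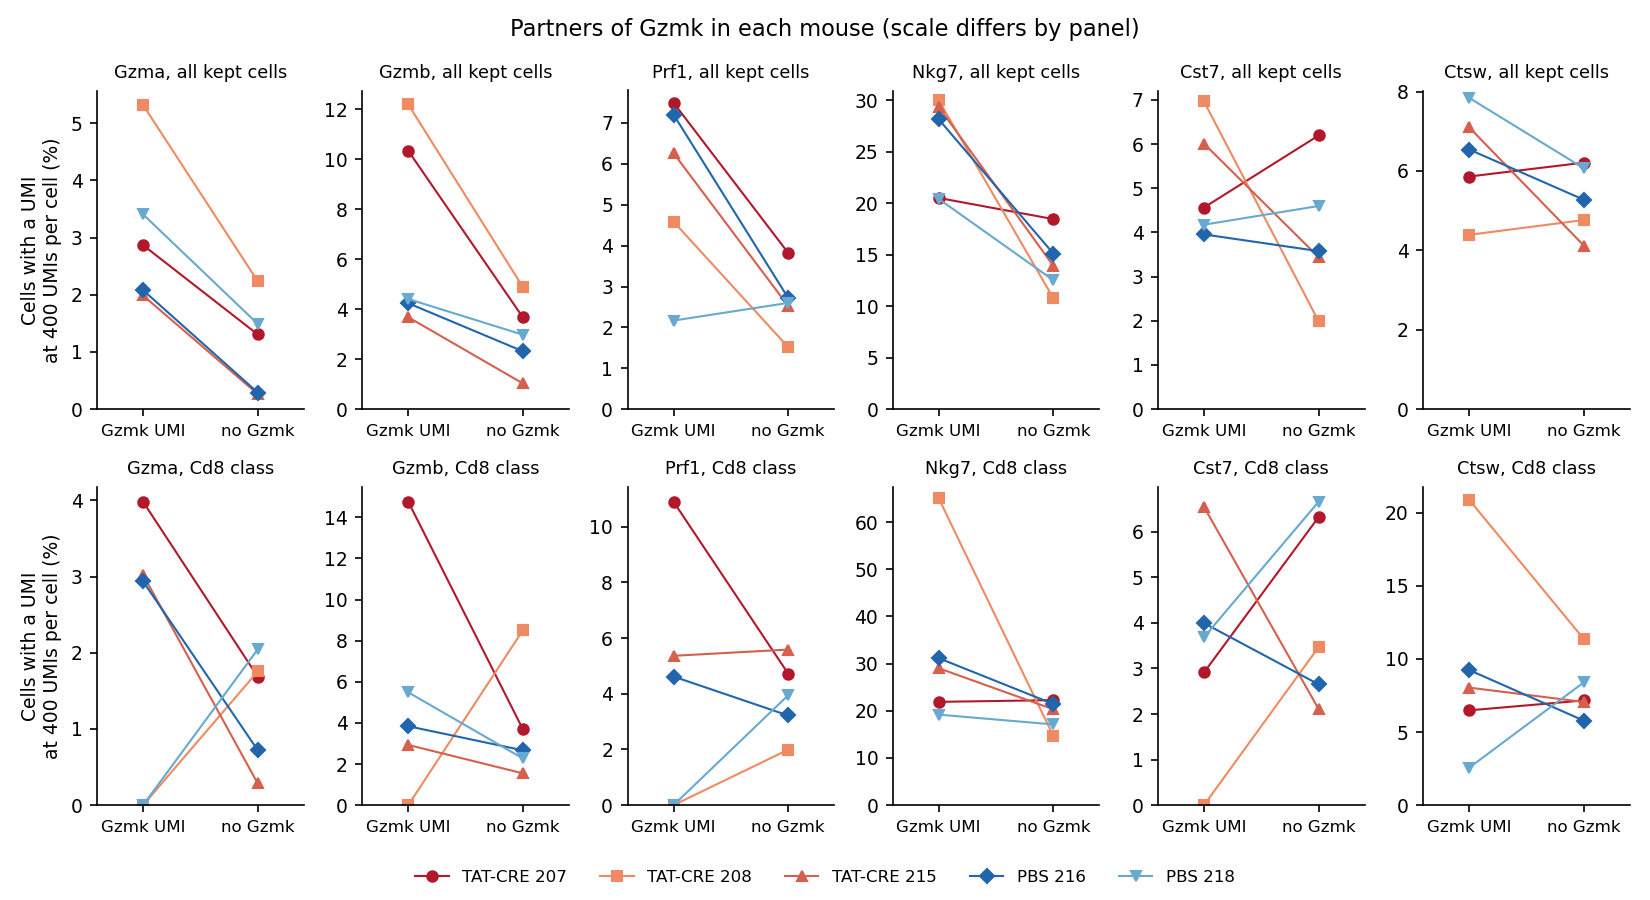
Share of cells with each partner at 400 UMIs (%) among cells with and without a Gzmk UMI in each mouse, over all kept cells (top) and within the Cd8 class (bottom), with the scale set per panel. Every line falls for Gzma, Gzmb and Nkg7 in the top row, whereas lines cross in the bottom row, where TAT-CRE 208 has 4 Gzmk-positive cells.

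Gene by gene, Gzmk-positive Cd8-class cells (36, 4 and 23 cells of the TAT-CRE mice and 34 and 16 of the PBS mice) were set against the Gzmk-negative ones of the same mouse. With the mouse as a block edgeR called 0 of 5 members tested and 0 of 908 genes (0%), marked 29 genes (3.19%) at an unadjusted p under 0.05, and DESeq2 called 1, Ccl5. The log2 fold changes were 0.39 ± 0.63 (SE) for Gzmb, 0.26 ± 0.68 for Prf1, 0.42 ± 0.24 for Nkg7, -0.19 ± 0.64 for Cst7 and -0.33 ± 0.51 for Ctsw (edgeR adjusted p = 0.990 for each), beside a median of -0.10 over all genes. Gzma did not pass the filter on low counts. Because no gene was called, none is named as most like Gzmk.

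Among the listed genes, those with the smallest p were Ccl5 and Eomes. Ccl5 was at 5381, 11792 and 5058 CPM in Gzmk-positive and 3746, 2572 and 2685 in Gzmk-negative cells of the TAT-CRE mice, and at 3897 and 3376 against 3498 and 1873 in the PBS mice. It was higher in 5 of 5 mice (log2 fold change 0.75 ± 0.22, unadjusted p = 0.003, edgeR adjusted p = 0.990 and DESeq2 adjusted p = 0.0139), and its adjusted p was under 0.05 in 3 of 16 alternatives. Over these its log2 fold change ran from 0.14 (no filter, edgeR adjusted p = 0.911, in a fit whose median over all genes was -0.96) to 0.89, and its adjusted p was 0.618 without the mouse as a block. Eomes, the T-box factor of memory CD8 T cells and NK cells, was at 285, 0 and 136 against 64.4, 137 and 55.3 CPM in the TAT-CRE mice and 245 and 212 against 54.3 and 49.3 in the PBS mice. It was higher in the 4 mice other than TAT-CRE 208 (1.68 ± 0.58, unadjusted p = 0.00859, edgeR adjusted p = 0.990) and under 0.05 in 0 of 16 alternatives. Of the 5 residency genes tested 4 were higher and 1 lower, of the 5 regulators 4 and 1, and of the 3 naive and memory genes 0 and 3, with 0 called in each list. Rgs2 (-1.48 ± 0.69, lower in 4 of 5 mice), Fasl (0.94 ± 0.58, higher in 4 of 5), Id2 (0.38 ± 0.23, 3 of 5) and Srgn (0.26 ± 0.29, 4 of 5) each had an edgeR adjusted p of 0.990.

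Cells with Gzma, Gzmb or Prf1 and no Gzmk were set against cells with Gzmk alone of the same mouse, and none of the 3 other members passed the test. EdgeR called 0 of 559 genes (0%) and 0 of these 3, leaving out the 4 that define the classes, with 25 genes (4.47%) at an unadjusted p under 0.05 and 0 by DESeq2. Nkg7 was at 777 ± 128 against 670 ± 128 CPM (SD, n = 5, log2 fold change 0.25 ± 0.19), Cst7 at 220 ± 33.7 against 153 ± 111 (0.85 ± 0.53, higher in 4 of 5 mice) and Ctsw at 193 ± 70.2 against 175 ± 60.5 (0.26 ± 0.51), with an edgeR adjusted p of 0.994 for each. The naive and memory factor Tcf7 was at 251 ± 81.6 against 421 ± 223 CPM (-0.58 ± 0.32, edgeR adjusted p = 0.956). The killer cell receptor gene Klrd1 (1.27 ± 0.78), Rgs2 (1.03 ± 0.64), Ltb (0.85 ± 0.53), Id2 (-0.25 ± 0.22), Cxcr6 (0.33 ± 0.34) and Srgn (0.29 ± 0.46) had an edgeR adjusted p of 0.994 each. Counted over cells, Eomes had a UMI in 18 of 134 Gzmk-alone cells (13.4%), 6 of 167 cells with the others alone (3.59%), 4 of 51 cells with both and 37 of 1130 cells with none (3.27%), and T-bet's gene Tbx21 in 2, 8, 0 and 17. Ccl5 had a UMI in 83.6%, 82.0%, 94.1% and 56.0% of the same groups. Cells of 1 mouse are not replicates, and Eomes was not among the genes that passed the filter in this comparison, so these counts are a description. Whether the comparisons within mice differed between TAT-CRE and PBS mice was tested with an interaction term, and edgeR called 0 genes in each of the 3, with an unadjusted p of 0.0936 or more for every member tested.

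Markers of NK cells had a UMI in 14.6% of Gzmk-positive, 15.9% of Gzma-positive, 19.8% of Gzmb-positive and 6.86% of Prf1-positive cells, against 6.37% of cells with none of the 4, which were shallower. At 400 UMIs these shares were 6.07%, 5.99%, 10.5% and 3.52% against 3.41%. Eomes is on this list and had a UMI in 22 Gzmk-positive cells, Klre1 in 7, and Ncr1, Klrb1c, Fcer1g and Tyrobp in 0. Among cells with Gzma, Gzmb or Prf1 the same genes, in this order, had a UMI in 10, 15, 1, 2, 5 and 1. Gamma-delta T cell markers were also read, with Trgc1, Trgc2 and Sox13 at 0, in cells sorted on TCRβ. They had a UMI in 15.1%, 27.3%, 19.8% and 15.7% of Gzmk-, Gzma-, Gzmb- and Prf1-positive cells and in 8.23% of cells with none. At 400 UMIs the shares were 6.36%, 10.3%, 7.55% and 7.54% against 3.50%. Plasmacytoid dendritic cell markers had one in 7.03%, 9.09%, 17.8% and 11.8% against 5.31%, or 1.94%, 3.86%, 5.17% and 3.05% against 1.88% at 400 UMIs. The monocyte or macrophage list, here Ccr2 alone, had one in 9.73%, 9.09%, 11.9% and 10.8% against 6.19%, or 3.67%, 4.46%, 4.57% and 3.97% against 3.11%. All 4 lists were thus read more often in each of the 4 groups than in cells with none, at both depths, in places by very little (1.94% against 1.88%, 3.52% against 3.41%). Other lists went both ways at 400 UMIs. Microglia markers had a UMI in 1.36%, 3.91%, 1.25% and 0.729% against 0.997%, and regulatory T cell markers had a UMI in 4.11%, 5.40%, 6.91% and 4.35% against 5.40%. At the same depth, tissue-resident T cell markers had one in 36.0%, 29.8%, 41.9% and 37.3% against 24.6%. Naive T cell markers had one in 15.4%, 25.4%, 14.2% and 19.6% against 29.2%, although unthinned Gzma-positive cells had more (59.1% against 50.6%). Unthinned, B cell markers had one in 4.86%, 4.55%, 1.98% and 5.88% against 9.82%, lower in all 4 groups at both depths. The T cell markers had a UMI in 97.8%, 90.9%, 92.1% and 96.1% of these groups and in 90.6% of cells with none. These cells share mice, the differences were not tested, and the part of these cell types in the co-detection above was not tested.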

How the data were processed

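Single brain T cells of 5 mice were sorted into 384-well plates, and RNA was barcoded per well and amplified linearly. The authors deposited unnormalized UMI counts for every gene and well. The submitters' processing notes name mm10 and bcl2fastq 2.15.0.4. Aligner, annotation and strand setting: not given in the sources used here. Wells with 1 cell were kept from 400 UMIs (spike-ins not counted) and up to 30% mitochondrial UMIs. No doublet caller was run. The members and gene lists were chosen with earlier results of these data known.

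UMIs were summed per mouse and class and tested with edgeR 4.0.16 (quasi-likelihood, TMM, filterByExpr, Benjamini-Hochberg over all genes tested, threshold 0.05), and DESeq2 1.42.0 was an alternative (R 4.3.3). Comparisons within mice had the mouse as a block, since both classes came from the same animals. Shares were computed for cells thinned to 400 UMIs (the mean over all draws, from the hypergeometric formula) and tested by exact permutation (Python 3.11.15, scipy 1.17.1). Intervals are exact binomial with 95% confidence, and a count of 0 was given the limit that 3 counts allow. On simulated counts with 200 changed genes, edgeR recovered 162 in the TAT-CRE comparison (170 called) and 135 in the Gzmk comparison (137 called). Recovery at the effect sizes of the members and the spread between mice measured here was not tested. Named are the members, up to 6 listed genes of smallest p in each comparison, Serpinb9, Serpinb6b, Ctsc and Srgn, and within mice the 10 genes of smallest p in each direction among those called. Tbx21, Gzmc, Gzmm, Ifng and Tnf are named from the lists for their counts of cells. Some genes that these rules would name are not reported here. Other normalizations, filters, depth and mitochondrial limits, class rules and leaving out each mouse were tried.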

Additional observations from a re-analysis of the deposited data

How the results depend on the processing

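The spread between 5 libraries, the 8 to 23 Cd4-class cells per mouse and the low counts of Gzma limit these comparisons. No paired analysis was possible because the TAT-CRE and PBS mice share no replicate numbers. Between the Cd8 and Cd4 classes the fit without the mouse as a replicate block called 3 genes, among them Nkg7 (adjusted p = 0.0471).

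Counts of called genes moved by over 1.5 times, or between 0 and another count, in 12 of 71 alternatives. DESeq2 called 1 gene between TAT-CRE and PBS mice, 9 between the Cd8 and Cd4 classes (4 higher, 5 lower) and 1 in the Gzmk comparison. With no filter edgeR called 6, 79 and, in the comparison of Gzma, Gzmb or Prf1 with Gzmk alone, 1. The Cd8 and Cd4 classes gave 6 with at least 2 Cd8 UMIs, and 1 (without TAT-CRE 215) to 4 (without TAT-CRE 208) with each mouse left out. The Gzmk comparison gave 1 over all kept cells, 1 with no filter and scaling by total UMIs (added after seeing the data), and 0 to 1 (without PBS 216) with each mouse left out. The cause was not tested.

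No TAT-CRE against PBS difference in a member was past the threshold, and several signs turned. The share with any of the 7 members differed by 0.230 percentage points, and by -7.03 with no thinning, -1.08 at 800 UMIs, -0.276 without the mitochondrial limit and -3.78 to 2.94 with each mouse left out. With no thinning the differences were -1.03 for Gzmk, -1.41 for Prf1 and -5.04 for Nkg7. At 800 UMIs they were -0.180, -0.388 and -0.680, and Prf1 was at -0.355 without the mitochondrial limit. With each mouse left out, shares differed by -1.71 to 2.43 (Gzmk), -0.185 to 0.914 (Gzma), -0.666 to 0.721 (Prf1), -1.71 to 2.21 (Nkg7) and -1.08 to 0.724 (Cst7). The log2 fold changes over all cells then ran from -0.49 to 1.13 (Gzmk), -0.46 to 0.36 (Prf1), -0.27 to 0.23 (Nkg7), -0.67 to 0.24 (Cst7), -0.93 to 1.30 (Serpinb9), -0.87 to 0.31 (Ctsc) and -0.088 to 0.012 (Srgn). Those in Cd8-class cells ran from -0.997 to 0.95 (Gzmk), -0.10 to 1.05 (Gzma), -0.086 to 0.58 (Prf1), -0.33 to 0.20 (Nkg7), -0.93 to 0.48 (Cst7), -2.66 to 0.41 (Ccr7), -2.52 to 1.32 (Ccl4) and -0.84 to 0.42 (Ctsc). Serpinb9 was at 0.26 and Ctsc at 0.049 with at least 800 UMIs, and Gzma in Cd8-class cells at -0.0078 without its highest cell (added after seeing the data).

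Between the Cd8 and Cd4 classes, Gzmk ran from -0.37 to 0.91 on the log2 scale and from -0.323 to 2.37 percentage points with each mouse left out, and Tcf7 was at 0.080 with no filter. In the Gzmk comparison, no filter (median over all genes -0.96) gave Gzmb -0.29, Prf1 -0.33, Nkg7 -0.11, Id2 -0.30 and Srgn -0.44, and all kept cells gave Cst7 0.11 and Ctsw 0.18. With each mouse left out Gzmb ran from -0.32 to 0.75, Prf1 from -0.37 to 0.88, Cst7 from -0.72 to 0.21 and Ctsw from -0.66 to 0.084. In shares of Cd8-class cells the ranges were -0.685 to 4.21 (Gzmb), -1.19 to 1.34 (Prf1) and -0.517 to 3.32 (Ctsw), and with no thinning Gzma was at -0.567 and Cst7 at 1.19. Against Gzmk alone, Ctsw ran from -0.093 to 0.56 and Srgn from -0.11 to 0.66. The share differences beside Gzmk over all kept cells kept their sign in all 54 alternatives.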

Other observations

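Wells left out by the limits held the same genes. Among 195 wells over the mitochondrial limit, Nkg7 had a UMI in 46, Gzmk in 16, Ctsw in 16, Gzmb in 8, Prf1 in 8, Cst7 in 6 and Gzma in 4. Among 223 wells under 400 UMIs the counts were 18, 3, 3, 5, 4, 3 and 4. Nkg7 was thus the member read in the most wells there too.

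Fasl, the ligand of the granule-independent killing route, had a UMI in 14 of 134 cells with Gzmk alone (10.4%), 8 of 167 with Gzma, Gzmb or Prf1 and no Gzmk (4.79%), 13 of 51 with both (25.5%) and 82 of 1130 with none of the 4 (7.26%). At 400 UMIs the means over the mice were 4.67% ± 5.91, 1.36% ± 1.56, 8.20% ± 6.08 and 3.29% ± 1.86 (SD, n = 5), so the spread between mice was as large as most of these differences. They were not tested.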
